A study of Mus musculus with 8 samples.

Results

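The maternal mRNA decay and deadenylation genes are 10 genes chosen by symbol, Btg4, Cnot1, Cnot6, Cnot6l, Cnot7, Cnot8, Zfp36l2, Ythdf2, Pabpn1l and Dcp1a. All 10 were found among the 21553 mouse genes that had a value, and all 10 passed the filter on low counts. They were measured in polyadenylated RNA of whole embryos from B6CBA F1 crosses, microinjected as zygotes with mRNA. The 2-cell embryos, collected 24 h after injection, and the 1-cell embryos, collected 5 h after injection, had each received Snrpb with Snrpd2, Snrpb alone, Snrpd2 alone or, as the control, mCherry mRNA. Snrpb and Snrpd2 encode Sm proteins of the spliceosome, and mCherry is a fluorescent protein. Each of the 8 conditions was 1 library from a pool of 40 embryos from 3 independent experiments, so no condition has a replicate, and the spread between embryos or experiments is not seen. The series concerns splicing at the onset of embryonic transcription, and the injections were made to raise 2 splicing proteins at that time.

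An oocyte stores mRNA that the early embryo uses and then removes, while its own genome is switched on. Most mRNA decay begins when the poly(A) tail is shortened by the CCR4-NOT complex, which carries nucleases of the CCR4 type (Cnot6 or Cnot6l) and of the CAF1 type (Cnot7 or Cnot8) on the scaffold Cnot1. Mouse oocytes bring the complex to maternal mRNA through BTG4, an adaptor that binds the CAF1 subunits, through PABPN1L, a cytoplasmic poly(A)-binding protein that recruits BTG4, through ZFP36L2, which binds AU-rich elements, and through YTHDF2, which reads m6A marks. DCP1A is a cofactor of the decapping enzyme that acts after deadenylation. Many of these mRNAs are themselves stored and are translated when their own tails are lengthened, under the control of U-rich cytoplasmic polyadenylation elements near the polyadenylation signal.

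Because the libraries were made from polyadenylated RNA, the 3′ ends of the members are shown first. In the GENCODE annotation, 8 of the 10 had a well-supported principal transcript with a polyadenylation signal (AATAAA or ATTAAA) in its last 50 bases, and Cnot1 and Cnot6 had none by that rule. Of these, 5 (Btg4, Cnot7, Cnot8, Ythdf2 and Dcp1a) held the letters TTTTAT or TTTTAAT, the core of a cytoplasmic polyadenylation element, in the 100 bases before the signal or overlapping it. The search read the transcript strand only, and 17.8% of 13091 genes with such a transcript held the same letters there. The lines below give 30 bases for the genes with the largest stage changes and for Btg4, in GRCm38, with the element and the signal in capitals. In Dcp1a the element and the signal overlap, and in Btg4 the element lies 66 bases before the signal and is shown alone.

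Cnot8 (chr11:58118553-58118582, + strand): atgtTTTTAATtttgtaaAATAAAgattgc
Cnot7 (chr8:40493036-40493065, − strand): ttaaggtacaTTTTATatcAATAAAaatac
Btg4 (chr9:51119476-51119505, + strand): ctttatgtaaaaTTTTATgaacactagtga
Dcp1a (chr14:30527007-30527036, + strand): ttgcaaatatatttTTTTAATAAAatttca
Pabpn1l (chr8:122619479-122619508, − strand): aatagtagaatgtaaattATTAAActtgaa

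Cnot8, Cnot7 and Btg4 rose at the 2-cell stage, while Dcp1a, which also holds an element, and Pabpn1l, which holds none, fell. Over all genes tested, 39.4% of 2032 genes with the element were called higher at the 2-cell stage and 34.3% lower, against 37.7% and 33.3% of 8902 genes without it. A match of letters is a description of the window and not a sign that the element is used. Tail length was not measured. A longer tail that is captured better and a larger number of mRNA molecules cannot be told apart in any value below. All values are relative to the reads of their own library. A rise or fall in molecules per embryo can therefore not be read from them.

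The libraries held 39492734 to 59979046 counted reads. Levels are given as cRPKM, the deposited reads per gene scaled for gene length and library total, which allow genes to be compared per length. The labels were met by the transcripts: Snrpb or Snrpd2 was at 876 to 43850 cRPKM in every library that had received it and at 0.85 to 26.2 cRPKM elsewhere. The 8 oocyte and embryo markers (Gdf9, Nlrp5, Padi6, Dppa3 and others) summed to 4300 to 5180 cRPKM in the 2-cell and 5220 to 5890 cRPKM in the 1-cell libraries, and none was at 0. Of these 8, 6 were called lower and 1 higher at the 2-cell stage (median log2 −2.35), with Zar1 at 66.1 to 106 cRPKM in the 2-cell and 823 to 999 cRPKM in the 1-cell libraries, while Dppa3 made up the largest part of the sum (2488 to 3079 cRPKM in the 2-cell and 2289 to 2691 cRPKM in the 1-cell libraries). All 6 markers of the 2-cell stage, such as Zfp352 and Zscan4d, were called higher there, with sums of 763 to 1040 cRPKM at the 2-cell and 9.98 to 13.3 cRPKM at the 1-cell stage. Sperm markers summed to 3.11 to 5.31 cRPKM at the 2-cell and 3.25 to 4.47 cRPKM at the 1-cell stage, and 10 blood, fibroblast and oviduct markers to 40.0 to 65.1 cRPKM at the 2-cell and 4.8 to 10.5 cRPKM at the 1-cell stage, with 5 of the 6 tested called higher and Hbb-bs at 0 in all libraries. In the 2-cell libraries Krt18 was the highest of that list, at 22.6 to 36.4 cRPKM. Epcam was at 9.39 to 13.9, Lyz2 at 3.76 to 14.7 and Pdgfra at 1.93 to 2.95 cRPKM there. Ptprc, Col1a1, Col1a2, Hba-a1 and Ovgp1 were at most 0.32 cRPKM in any library. The part of the blood, fibroblast and oviduct markers in the stage changes below was not tested. The stage comparison was made with edgeR's quasi-likelihood test over all 8 libraries, with injection as a term. The 4 differently injected libraries of a stage stood in for replicates, and the SDs given below are over those 4. Values of single libraries are listed in the order Snrpb with Snrpd2, Snrpb, Snrpd2, mCherry.

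Of the 10 genes, 5 were higher and 4 lower in 2-cell embryos, relative to 1-cell embryos (edgeR adjusted p under 0.05), and Ythdf2 did not pass. Over all 16264 genes tested, 38.1% were called higher and 32.0% lower, 70.1% in all, so a call for stage was common in these libraries. The median log2 change was 0.17 over the 10 genes and 0.15 over all genes, and the median size of the change was 0.72 against 1.07. Changes of at least 8-fold were seen for Cnot8 (higher) and Pabpn1l (lower), 2 of the 10, against 16.6% of all genes. The cRPKM ranges of the stages did not overlap for 7 of the 10, against 67.7% of all genes. Of these, 5 lay higher at the 2-cell stage (42.8% of all genes) and 2 lower (24.8%). Overlap depended on the scaling: with the TMM-scaled reads used by edgeR, the stages overlapped for Zfp36l2 and did not for Cnot1.

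**Figure D1:**
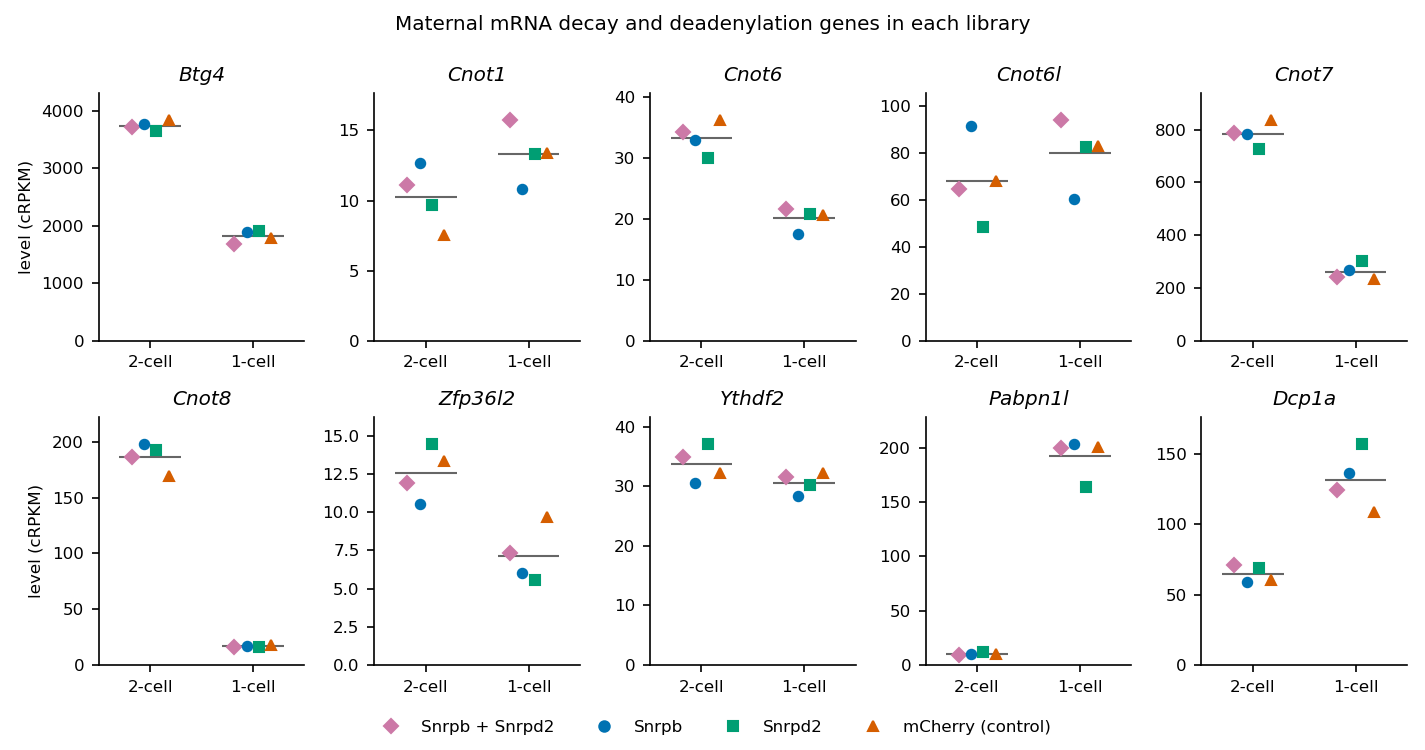
Level of each of the 10 genes (cRPKM, linear axes from 0) in the 4 2-cell libraries and the 4 1-cell libraries, 1 point a library with its injection by colour and shape, and a grey line at the mean of the 4. Btg4, Cnot6, Cnot7, Cnot8 and Zfp36l2 lie higher in every 2-cell library, Pabpn1l and Dcp1a lower, and Cnot1, Cnot6l and Ythdf2 overlap.

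Btg4 (ENSMUSG00000032056), the adaptor, had the highest level of the 10 genes at both stages. It stood at 3708, 3768, 3644 and 3837 cRPKM in the 2-cell libraries, against 1682, 1897, 1915 and 1782 cRPKM in the 1-cell libraries. The stages were far apart and each was narrow, with the highest library at 1.05 times the lowest at the 2-cell stage and 1.14 times at the 1-cell stage. By cRPKM, Btg4 took ranks 4 to 7 of all genes at the 2-cell stage and ranks 14 to 16 at the 1-cell stage. The rise was 1.72-fold (log2 0.78, SE 0.11, edgeR adjusted p = 0.00012) and was seen in all 4 injections, at 1.53- to 1.91-fold. Layn and 4833427G06Rik, genes on the other strand that overlap the annotated span of Btg4, had at most 54 reads in any library.

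The CAF1-type nucleases rose most. Cnot7 (ENSMUSG00000031601) was at 787, 783, 726 and 836 cRPKM in the 2-cell libraries, against 241, 268, 303 and 233 cRPKM in the 1-cell libraries. That was a 2.52-fold rise (log2 1.33, SE 0.14, edgeR adjusted p = 1.03e-05), from 1.92- to 3.12-fold across injections. Part of Cnot7 overlaps Vps37a on the other strand, which was listed at 20.2 to 23.8 cRPKM at the 2-cell and 11.8 to 14.6 cRPKM at the 1-cell stage, and the use of strand in counting is not given in the sources used here.

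Cnot8 (ENSMUSG00000020515), the paralog of Cnot7, was at 187, 198, 192 and 169 cRPKM in the 2-cell libraries, against 15.7, 17.3, 15.8 and 18.0 cRPKM in the 1-cell libraries. Every 2-cell library lay far above every 1-cell library, and the order of injections within a stage was not shared between stages. The rise was 9.33-fold (log2 3.22, SE 0.12, edgeR adjusted p = 1.96e-08), and 8.19- to 10.3-fold across injections. The summed cRPKM of Cnot7 and Cnot8 was 970 ± 36.9 at the 2-cell stage and 278 ± 31.4 at the 1-cell stage (SD, n = 4 each). Btg4, which binds these subunits, was 3.81 to 3.97 times that sum in the 2-cell libraries and 6.0 to 7.11 times in the 1-cell libraries.

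Of the CCR4-type nucleases, Cnot6 rose and Cnot6l was called lower by a call that did not hold under every setting. Cnot6 (ENSMUSG00000020362) was at 34.2, 32.9, 29.9 and 36.2 cRPKM in the 2-cell libraries, against 21.5, 17.5, 20.8 and 20.65 cRPKM in the 1-cell libraries. It rose 1.38-fold (log2 0.47, SE 0.12, edgeR adjusted p = 0.00512), with no overlap of the stages. Cnot6l (ENSMUSG00000034724), the form known to act in mouse oocyte maturation, was at 64.8, 91.65, 48.7 and 68.3 cRPKM in the 2-cell libraries, against 94.2, 60.5, 82.8 and 83.3 cRPKM in the 1-cell libraries.

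Cnot6l was the more variable of the pair, and its stages overlapped. Its log2 change was −0.51 (SE 0.19, edgeR adjusted p = 0.0369), but the call was lost with library totals as the scaling (log2 −0.25, adjusted p = 0.259), with limma on cRPKM, and without any of the 2-cell Snrpb with Snrpd2, 2-cell Snrpd2, 2-cell mCherry, 1-cell Snrpb with Snrpd2 or 1-cell Snrpd2 libraries (adjusted p 0.0576 to 0.117). Without the 2-cell or the 1-cell Snrpb library the log2 change was −0.78 in both cases (edgeR adjusted p = 0.00186 and 0.00214). In the Snrpb-injected embryos Cnot6l was 1.22-fold higher (95% interval 1.19 to 1.26, counting error only) at the 2-cell stage. With Snrpb and Snrpd2, Snrpd2 alone and mCherry its 2-cell to 1-cell ratios were 0.595, 0.472 and 0.713.

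Cnot1 (ENSMUSG00000036550), the scaffold of the complex, was among the lower members at 11.1, 12.65, 9.67 and 7.52 cRPKM in the 2-cell libraries, against 15.7, 10.8, 13.3 and 13.4 cRPKM in the 1-cell libraries. In cRPKM the stages overlapped, since the 2-cell Snrpb library and the 2-cell library with both mRNAs lay above the 1-cell Snrpb library. With TMM-scaled reads they did not, at 55.06 to 91.74 CPM in the 2-cell and 96.93 to 130.0 CPM in the 1-cell libraries. On the TMM scale Cnot1 fell 1.57-fold (log2 −0.65, SE 0.15, edgeR adjusted p = 0.0035). The call was lost with limma on log2(cRPKM + 0.1) (log2 −0.39, adjusted p = 0.0582). Within the injections its ratio of 2-cell to 1-cell reads ran from 0.489 with mCherry to 0.946 with Snrpb.

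Pabpn1l (ENSMUSG00000069867) fell more than any other member. It was at 9.24, 10.1, 11.98 and 9.86 cRPKM in the 2-cell libraries, against 199.99, 203, 164 and 200.3 cRPKM in the 1-cell libraries. This was a 22.3-fold fall (log2 −4.48, SE 0.15, edgeR adjusted p = 1.54e-08), and 17.0- to 25.0-fold across injections. By cRPKM it took ranks 4772 to 5364 of all genes at the 2-cell stage and ranks 328 to 441 at the 1-cell stage. Its fall thus ran against the rise of Btg4, the adaptor that its protein recruits.

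Zfp36l2 (ENSMUSG00000045817), the AU-rich element binder, was a low-level member, at 11.9, 10.5, 14.5 and 13.4 cRPKM in the 2-cell libraries, against 7.34, 5.99, 5.53 and 9.66 cRPKM in the 1-cell libraries. In cRPKM all 2-cell libraries lay above all 1-cell libraries, with the 1-cell mCherry library closest to them. With TMM-scaled reads the stages overlapped, with the 2-cell Snrpb library at 33.76 CPM below the 1-cell mCherry library at 36.02 CPM. The rise was 1.5-fold (log2 0.58, SE 0.15, edgeR adjusted p = 0.00546). The log2 change was 0.37 without the 2-cell Snrpd2 library and 0.37 without the 1-cell Snrpd2 library, and the call was kept (edgeR adjusted p = 0.027 and 0.0265).

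Ythdf2 (ENSMUSG00000040025), the m6A reader, was nearly level, at 35.03, 30.5, 37.1 and 32.2 cRPKM in the 2-cell libraries, against 31.5, 28.4, 30.3 and 32.25 cRPKM in the 1-cell libraries. Its log2 change was −0.12 (SE 0.11, edgeR adjusted p = 0.325) with TMM and 0.14 with library totals, so its sign followed the scaling. Dcp1a (ENSMUSG00000021962), the decapping cofactor, was at 71.0, 58.7, 68.6 and 60.4 cRPKM in the 2-cell libraries, against 124, 136, 157 and 108 cRPKM in the 1-cell libraries. It fell 2.42-fold (log2 −1.27, SE 0.13, edgeR adjusted p = 1.03e-05), and 2.02- to 2.87-fold across injections.

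Scaling between the stages shifted all genes together. The median gene moved by 0.15 (log2) with TMM and by 0.41 with library totals. The 5 rises, and the falls of Pabpn1l, Dcp1a and Cnot1, kept their direction and their call with library totals, with log2 changes of 3.48 for Cnot8, 1.59 for Cnot7, 1.04 for Btg4, 0.84 for Zfp36l2, 0.73 for Cnot6, −0.39 for Cnot1, −1.01 for Dcp1a and −4.22 for Pabpn1l.

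**Figure D2:**
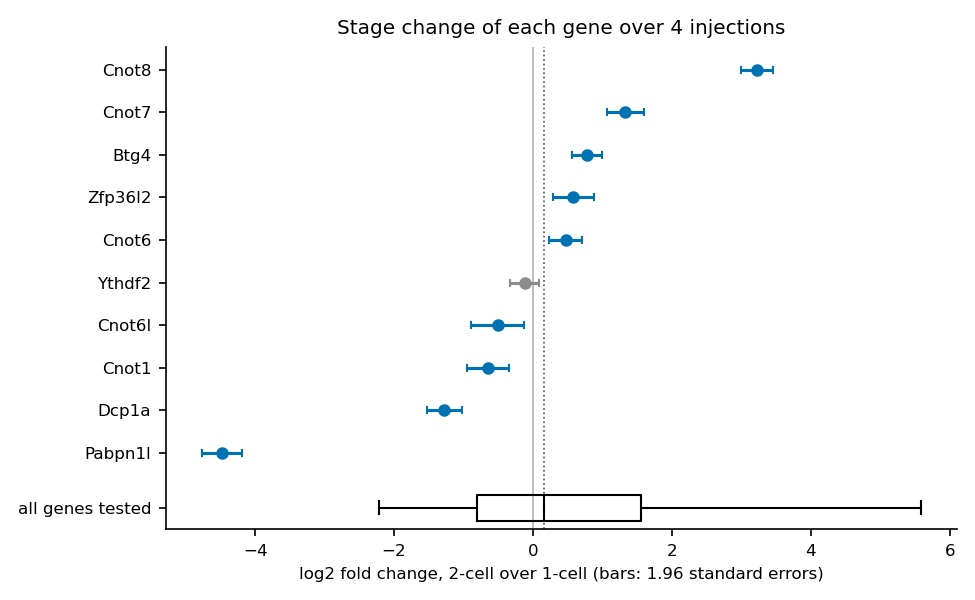
Log2 fold change of each gene, 2-cell over 1-cell, from edgeR with TMM scaling, above a box of all 16264 genes tested. Bars are drawn from the standard error with a normal multiplier and are narrower than 95% intervals of the test. Blue marks adjusted p under 0.05 and grey not passed. The box shows quartiles, the whiskers the 5th and 95th percentiles and the dotted line the median of 0.15. Cnot8 at 3.22 and Pabpn1l at −4.48 stand at the 2 ends, and Ythdf2 at −0.12 is the gene that did not pass.

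Each of 6 members was then set against its paralog in the same library, since a ratio of 2 genes within a library does not depend on scaling. The 6 pairs were tested with a two-sided exact permutation test of the mean log2 ratio, 4 2-cell against 4 1-cell libraries, for which the smallest possible p is 0.0286. For 4 pairs, Cnot7 with Cnot8, Cnot6l with Cnot6, Zfp36l2 with Zfp36l1 and Pabpn1l with Pabpn1, the ratio was lower in all 4 2-cell libraries than in any 1-cell library (exact permutation p = 0.0286 each, adjusted over the 6 pairs p = 0.0429). In each of them the balance moved toward the gene named second. That order was set by the list of pairs, so the shared direction is not a result of its own. Cnot7, Cnot8, Cnot6l and Cnot6 are all members. How often other pairs of genes would separate the stages in this way was not measured. Among single genes, 67.7% had cRPKM ranges that did not overlap between the stages. That is a rate for single genes and not for ratios, and whether the 4 passes are particular to paralogs was not tested.

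Cnot8 made up 19.2%, 20.2%, 20.9% and 16.8% of the summed cRPKM of Cnot7 and Cnot8 in the 2-cell libraries, against 6.12%, 6.07%, 4.96% and 7.17% in the 1-cell libraries. Cnot7 thus remained the larger part at both stages, while the log2 ratio of Cnot7 to Cnot8 moved by −1.89. Cnot6l made up 65.4%, 73.6%, 61.9% and 65.4% of its sum with Cnot6 in the 2-cell libraries, against 81.4%, 77.6%, 79.9% and 80.1% in the 1-cell libraries (log2 ratio −0.98). The summed cRPKM of Cnot6 and Cnot6l was 102 ± 18.9 at the 2-cell stage and 100 ± 15.9 at the 1-cell stage (SD, n = 4 each), a difference smaller than the spread between libraries.

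Pabpn1l made up 3.13% to 3.55% of its sum with Pabpn1, the nuclear poly(A)-binding protein gene, at the 2-cell stage and 44.3% to 53.3% at the 1-cell stage (log2 ratio −4.87). Pabpn1 itself was at 299 ± 17.7 cRPKM at the 2-cell and 191 ± 11.8 cRPKM at the 1-cell stage (SD, n = 4 each). Zfp36l2 made up 75.8% to 81.7% of its sum with Zfp36l1 at the 2-cell stage and 95.8% to 97.4% at the 1-cell stage (log2 ratio −2.97), although Zfp36l2 rose, because Zfp36l1 stood at 3.4 ± 0.279 cRPKM at the 2-cell stage, against 0.242 ± 0.0126 cRPKM at the 1-cell stage. The ratio of Ythdf2 to Ythdf3, another m6A reader, overlapped between the stages (log2 difference 0.28, exact permutation p = 0.0857, adjusted over the 6 pairs p = 0.103), with Ythdf3 the larger part in all 8 libraries. Dcp1b was at most 1.06% of its sum with Dcp1a in any library (log2 difference −0.03, exact permutation p = 0.971, adjusted over the 6 pairs p = 0.971).

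**Figure D3:**
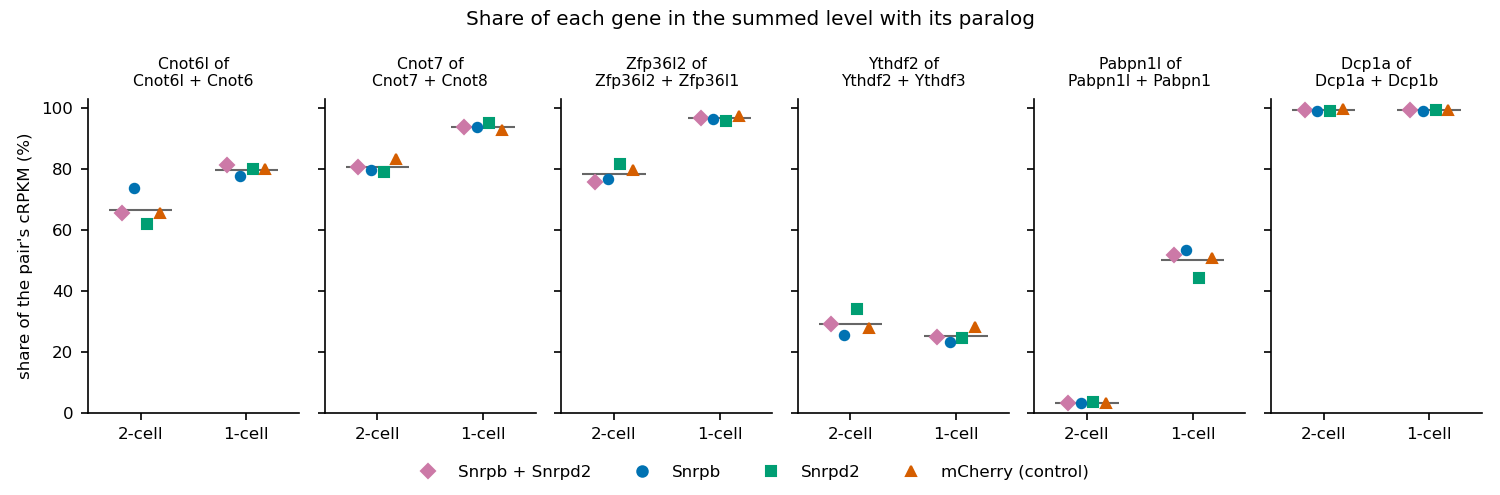
Share of the first gene of each pair in the pair's summed cRPKM (percent, axis from 0), in 4 2-cell and 4 1-cell libraries, with a grey line at the mean. Pabpn1l lies at 3.13% to 3.55% in the 2-cell and 44.3% to 53.3% in the 1-cell libraries, Cnot6l, Cnot7 and Zfp36l2 lie lower at the 2-cell stage without overlap, and the shares of Ythdf2 and Dcp1a overlap.

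The injections were compared next, as the 3 libraries with Sm mRNA against the mCherry library of the same stage in a model with 4 groups, in which the lone control is assumed to vary like the injected libraries. None of the 10 genes passed at either stage, nor did any differ between the stages in its response (edgeR, adjusted p of at least 0.212). Over all 16867 genes tested the background of calls was 0.0% in each of these comparisons. The injected Snrpb and Snrpd2 were thus not called either, although Snrpb was at 43850 cRPKM in the 1-cell Snrpb library and 7.96 cRPKM with mCherry. A member without a call is therefore not shown to be unaffected by injection. In edgeR 15.5% of genes had an unadjusted p under 0.05 at the 1-cell stage and 3.78% at the 2-cell stage. Among the members, unadjusted p was under 0.05 for Zfp36l2 and Dcp1a at the 1-cell stage, for Cnot1 at the 2-cell stage and for none in the difference between stages, where 9.77% of all genes reached it. DESeq2 called 540 genes at the 1-cell stage, 0 at the 2-cell stage and 63 for the difference between stages, and no member was among them.

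Zfp36l2 was the gene nearest to a call at the 1-cell stage. Its 1-cell level was 7.34, 5.99 and 5.53 cRPKM with Sm mRNA and 9.66 cRPKM with mCherry (log2 −0.59, SE 0.19, edgeR adjusted p = 0.212). Taken alone, its ratio to mCherry was 0.745 (95% interval 0.693 to 0.801) with both mRNAs, 0.661 (0.615 to 0.711) with Snrpb and 0.586 (0.543 to 0.633) with Snrpd2. Dcp1a lay above the control in the same libraries (log2 0.40, SE 0.18, edgeR adjusted p = 0.311), with ratios of 1.13, 1.34 and 1.48.

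At the 2-cell stage Cnot1 was at 11.1, 12.65 and 9.67 cRPKM with Sm mRNA and 7.52 cRPKM with mCherry (log2 0.53, SE 0.21, edgeR adjusted p = 1). Its ratios to mCherry were 1.45 (1.37 to 1.52), 1.67 (1.58 to 1.75) and 1.21 (1.15 to 1.28). Cnot6l differed between the single injections at this stage, with ratios of 1.33 (1.29 to 1.37) for Snrpb and 0.674 (0.653 to 0.696) for Snrpd2. Btg4, by contrast, lay between 0.898 and 1.14 times the control in all 6 injected libraries, Cnot8 between 0.857 and 1.16 times and Ythdf2 between 0.939 and 1.09 times.

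Ratios of at least 1.5-fold in either direction were found in 3 of the 60 comparisons of a member in 1 library with its control. They were Cnot1 in the 2-cell Snrpb library and Zfp36l2 in the 1-cell Snrpb and Snrpd2 libraries. Over all genes with at least 50 reads, such ratios made up 14.1%, 16.1% and 21.7% in these 3 libraries, and 11.6%, 13.2% and 13.8% in the 2-cell library with both mRNAs, the 2-cell Snrpd2 library and the 1-cell library with both. In each library 0 or 1 of the 10 members passed. These ratios share the mCherry library of their stage, rest on 1 library a condition and have no replicate check.

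Markers of cumulus and granulosa cells had higher sums in the 3 1-cell libraries with Sm mRNA, with no marker called. The summed cRPKM of the 21 markers was 54.9, 40.8 and 37.4 in the 1-cell libraries with Sm mRNA and 26.9 with mCherry, and 30.1, 27.4 and 36.1 with Sm mRNA against 27.1 with mCherry at the 2-cell stage. Of the 21, 19 passed the filter, and Pgr was listed at 0 in all 1-cell libraries. Their part in the values of Zfp36l2 and Dcp1a was not tested.

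**Figure D4:**
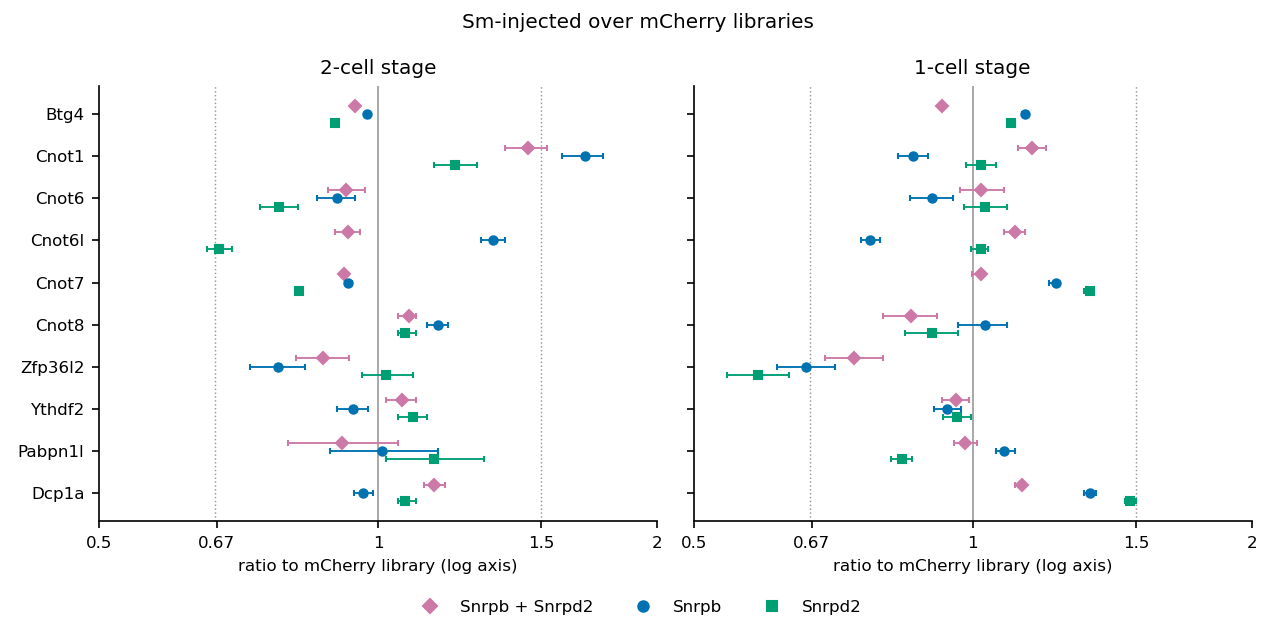
Ratio of each gene in a Sm-injected library to the mCherry library of the same stage (log axis, TMM-scaled reads; bars, 95% intervals for counting error only; dotted lines, 1.5-fold either way). Cnot1 in the 2-cell Snrpb library and Zfp36l2 in the 1-cell Snrpb and Snrpd2 libraries lie past 1.5-fold.

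The rest of the decay machinery was followed in 7 lists with 97 genes, of which 95 were found and 93 tested. At the 2-cell stage 29 were higher and 48 lower (median log2 −0.45), against 38.1% and 32.0% of all genes (median 0.15). The lists describe how the members' partners moved, and no list gene was called in an injection comparison.

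Of 11 other CCR4-NOT subunits and BTG or TOB adaptors, 5 rose and 5 fell (median log2 0.26). Tob1, an adaptor of the same family as Btg4, rose 11.5-fold to 54.8 ± 6.54 cRPKM at the 2-cell stage, against 3.98 ± 0.581 cRPKM at the 1-cell stage (SD, n = 4 each). Btg3 rose 14.6-fold on few reads, 125 in the 4 2-cell libraries against 9 in the 4 1-cell libraries. The subunit genes Cnot11 (28.6 ± 1.85 cRPKM at the 2-cell and 123 ± 14.5 cRPKM at the 1-cell stage) and Cnot3 (70 ± 8.01 cRPKM at the 2-cell and 135 ± 11 cRPKM at the 1-cell stage) fell 5.12-fold and 2.32-fold. The adaptor genes Btg1 and Btg2 were also called higher, with log2 changes of 2.72 and 1.04, and Tob2 was called lower, with a log2 change of −0.74.

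Of 11 genes listed with the other deadenylases and uridylyltransferases, 4 rose and 4 fell (median log2 −0.00247). A place in this list does not show that a protein shortens poly(A) tails. Angel2, of the same nuclease superfamily as Cnot6, rose 4.85-fold to 296 ± 4.24 cRPKM, against 51.6 ± 9.24 cRPKM at the 1-cell stage, and Tut4, a terminal uridylyltransferase, rose 4.6-fold at a low level (0.718 cRPKM at the 2-cell and 0.13 cRPKM at the 1-cell stage). Parn, the poly(A)-specific ribonuclease, fell 2.97-fold and Noct, nocturnin, 2.62-fold.

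Decapping and 5′ to 3′ decay genes were mostly lower, as Dcp1a was, with 4 higher and 7 lower of 12 (median log2 −1.13). Edc4, a scaffold of the decapping complex, fell 12-fold to 14.1 ± 1.71 cRPKM, against 141 ± 10.9 cRPKM at the 1-cell stage (SD, n = 4 each). Nudt16 fell 5.4-fold at a low level (0.542 cRPKM at the 2-cell and 2.43 cRPKM at the 1-cell stage). Nudt3 rose 1.99-fold. Edc3, an enhancer of decapping, rose 1.74-fold at a low level (0.95 cRPKM at the 2-cell and 0.453 cRPKM at the 1-cell stage). Exosome and SKI complex genes had 2 higher and 11 lower of 16 (median log2 −0.66), with the nuclease gene Dis3 3.28-fold and Wdr61 1.85-fold higher, and Exosc10 6.89-fold and Exosc9 3.92-fold lower.

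RNA-binding proteins other than Zfp36l2 went 5 up and 5 down of 14 (median log2 −0.16). Zfp36l1 rose 11.5-fold, and Zfp36l3, also of that family, had 246 reads at the 2-cell and 0 at the 1-cell stage, which is at least 89.7-fold higher if 3 reads over all 1-cell libraries are taken as the floor. Cpeb1, which binds cytoplasmic polyadenylation elements, fell 4.63-fold to 33.0 ± 1.69 cRPKM, against 128 ± 10 cRPKM at the 1-cell stage, and Celf1 fell 1.94-fold. Genes of the m6A pathway other than Ythdf2 went 4 up and 10 down of 16 (median log2 −0.58). Igf2bp1, an mRNA-stabilizing reader, rose 28.4-fold at a low level (3.76 cRPKM at the 2-cell and 0.11 cRPKM at the 1-cell stage). Ythdf1 rose 2.38-fold, while the writer subunit gene Virma fell 8.4-fold and the nuclear reader gene Ythdc1 3.21-fold.

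Poly(A)-binding proteins and poly(A) polymerases went 5 up and 6 down of 13 tested (median log2 −0.46). Pabpc1l, the embryonic poly(A)-binding protein gene, fell 4.73-fold to 53.3 ± 4.22 cRPKM, against 213 ± 45.1 cRPKM at the 1-cell stage, while Pabpc1 rose 8.71-fold to 14.3 ± 2.25 cRPKM, against 1.41 ± 0.459 cRPKM (SD, n = 4 each). Pabpc1l and Pabpn1l thus both fell while Pabpc1 and Pabpn1 were higher. Papolb, a poly(A) polymerase gene known from testis, rose 296-fold (6330 reads against 23), and Papolg fell 15.8-fold. The stage changes given as folds for list genes passed edgeR's test with adjusted p of at most 0.00631, and Pabpn1 passed it with a log2 change of 0.39 (edgeR adjusted p = 0.00641).

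**Figure D5:**
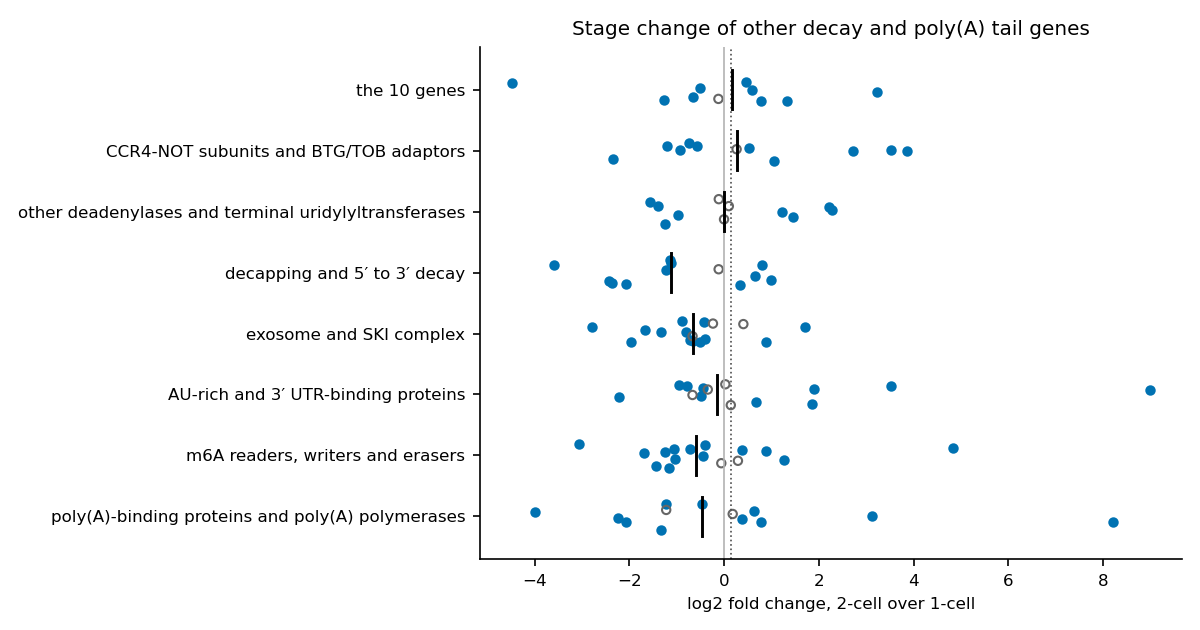
Log2 fold change, 2-cell over 1-cell, of the 10 genes and of the tested genes in 7 lists (points; filled, edgeR adjusted p under 0.05; open, not passed; black bars, list medians; dotted line, the median of all genes at 0.15). Decapping genes have the lowest median, at −1.13, and the far right points are Zfp36l3, whose fitted value depends on the prior count because it had 0 reads at the 1-cell stage, and Papolb.

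The genes whose log2(CPM + 0.5) followed Btg4 most closely over the 8 libraries, among 5293 genes with a mean of at least 10 cRPKM, were Tcl1b5 (Pearson r = 0.999), Fam241b (0.998), a gene with no symbol (ENSMUSG00000078936, 0.998), Tfdp1 (0.998) and Cetn4 (0.997). The libraries fall into 2 stages, and the values are given as a description with no test. The sizes of the changes differed: mean cRPKM at the 2-cell stage was 25.0 times that at the 1-cell stage for Tcl1b5, 9.0 times for Fam241b, 4.07 times for Tfdp1, 2.44 times for Cetn4 and 2.06 times for Btg4.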

How the data were processed

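Per the labels' protocols, RNA was extracted with the Qiagen RNeasy Micro kit, and SMARTer Stranded RNA-Seq libraries were sequenced on a HiSeq2500. The authors deposited, for each library, raw read counts per gene and cRPKM, an RPKM value. For 2662 highly counted genes the deposited cRPKM equalled count over a fixed length and library total within 0.17%. The submitters' processing notes name mm9. The sources used here do not give the aligner, the annotation, the use of strand or the treatment of shared reads. Symbols and 3′ ends came from GENCODE vM21 (GRCm38), so positions apply to the printed sequences only. Of 22667 listed genes, 1114 had no value.

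Counts were tested with edgeR 4.0.16 in R 4.3.3 (TMM, filterByExpr, quasi-likelihood test, Benjamini-Hochberg over all genes), with 3 residual degrees of freedom for the stage model (injection and stage) and 4 for the injection model. In the stage model its p-values rest on how unevenly the stage change varied between injections. In the injection model they rest on the spread between differently injected libraries. Neither measures the spread between replicate pools. Each edgeR SE is the size of the log2 change divided by the square root of the test's F statistic. Alternatives used DESeq2 1.42.0, limma 3.58.1 and other scalings. Ratios of single libraries have exact conditional binomial intervals (95%), which, like the floor of 3 reads, cover counting error only. Only the stage fit was tried on simulated data, in which few genes changed at the 2-cell stage and none with injection. Those data are unlike these libraries, where 70.1% of genes were called for stage. The injection model was not tried in this way. The members and lists were chosen with earlier results of these data known. By rule, the text names all 10 members, per list the 2 most raised and 2 most lowered genes called for stage, and the 5 genes most like Btg4.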

Additional observations from a re-analysis of the deposited data

Results flagged for a closer look

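Among 20 sets of 4 libraries (10 genes at 2 stages), the 1-cell Snrpd2 library stood apart for Pabpn1l, at 163.77 cRPKM, while the other 1-cell libraries were at 199.99 to 203.25 cRPKM (gap of 0.917 of the range). This is past Dixon's 95% critical value for 4 values, which chance alone passes in about 1 set in 20, and no other set passed it.

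Cnot6l had a ratio of 2-cell to 1-cell reads of 1.22 with Snrpb, whereas with each other injection the ratio was below 1 (0.472 to 0.713). Each injection has 1 library a stage, and the difference was not tested.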

How the results depend on the processing

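The 16 alternatives for the stage effect kept all 5 rises called, and kept the falls of Pabpn1l (log2 −4.66 to −4.10) and Dcp1a (−1.40 to −1.004). Members called lower numbered 2 with limma on log2(cRPKM + 0.1) and 2 with log2(cRPKM + 1), where Cnot1 and Cnot6l were lost, and 3 to 4 when 1 library was left out. The total of stage calls was 10297 to 11755. No member was called for injection under any alternative run, and the cause of the differing totals over all genes was not tested: at the 1-cell stage 540 genes with DESeq2, 1 with limma on log2(cRPKM + 0.1), and 0 to 3 without 1 library (3 without the library given both mRNAs, 2 without the Snrpd2 library); at the 2-cell stage 2 with that limma setting; for the difference between stages 63 with DESeq2 and 1 with limma. With the mCherry library of a stage left out, that stage's injection comparison could not be fitted. The number of paralog ratios that passed was 4, and 0 without any 1 library, where the smallest possible p is 0.0571, or with sign flips of the 4 stage pairs, where it is 0.125. These cannot pass by construction, and the log2 differences of those 4 pairs kept their direction. The stage model pairs the libraries of an injection through its injection term, and without that term 11407 genes were called for stage. The labels give no replicate numbers, so no other pairing was made. Pabpn1l had 401 to 588 reads in the 2-cell libraries, the fewest of any member at either stage.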
